A study of Populus trichocarpa with 28 samples.

Results

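The genes described here are those of Populus trichocarpa (black cottonwood) that appear in no intron entry of the deposited count tables, alone or joined with another gene, and that hold at least 50 sense reads summed over the 28 libraries. They are called intronless genes below. Of 41335 genes listed, 7899 had no intron entry (19.1%), and 4688 of these reached 50 reads. The other 3211 fell short, 1292 of them with 0 reads in every library. The rule was passed by 51 genes with 50 to 54 reads, 9 of which were tested in any comparison, and it left out 71 genes with 45 to 49 reads. Genes with an intron entry serve as the counterpart: 33436 were listed and 26903 had at least 50 reads, so that 14.8% of all genes above this minimum were intronless. Fewer than 50 reads were found for 40.7% of genes without an intron entry, against 19.5% of genes with one. The gene structure itself could not be checked, because no annotation with these gene IDs was at hand, and the class rests on the absence of an intron entry alone.

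Plants grew from rooted stem cuttings under glass and were watered to field capacity for 2 months. Water was then withheld from drought plants, which spent 24 hours (short-term) or 25 days (long-term) at 40% of field capacity, and control plants stayed at field capacity. Groups of drought and control libraries, 2 each, covered short-term apex and short-term mature leaves (both total RNA depleted of ribosomal RNA), long-term apex, young leaves, mature leaves and root (mRNA), and long-term root again as total RNA. Every plant was thus a vegetative cutting grown under the same regime, and the labels name no genotype. Nor do they state that both libraries of a group are from different plants, so the p-values may cover technical spread alone. The tissue labels could not be checked against marker genes, since the IDs carry no names. Libraries held 20249489 to 67062224 sense reads and 382726 to 2686433 antisense reads. Libraries are named below by the number in their titles: 19 and 49 (control) and 35 and 69 (drought) in the short-term experiment, 63 and 70 (control) and 64 and 68 (drought) in the long-term one.

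Most plant genes are interrupted by introns, which the spliceosome removes before the mRNA leaves the nucleus. Genes without introns skip that step. In Arabidopsis they include most small auxin-up RNA genes, many AP2/ERF transcription factors such as the CBF/DREB group known for cold and drought responses, and most pentatricopeptide repeat genes, and some others are retrocopies made from a spliced mRNA. Which of these families the poplar genes belong to cannot be read from their IDs, so genes are given below by ID without a role.

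Intronless genes were read at lower levels than genes with introns, and from fewer tissues. Levels are read counts scaled to the effective library size (counts per 1000000 reads, CPM) and averaged over the 14 groups. They are not per length, as no gene lengths were at hand, so a shorter transcript gives a lower value at the same number of molecules. The median intronless gene stood at 1.57 CPM (quartiles 0.272 and 9.29), against 7.38 CPM for genes with introns. A mean of 1 CPM or more was reached by 56.4% of intronless genes and 78.5% of genes with introns, while the upper ends lay closer together: 201 intronless genes (4.29%) reached 100 CPM, against 1574 genes with introns (5.85%).

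Among the long-term control mRNA libraries, 3026 intronless genes had at least 1 CPM in one or more of apex, young leaves, mature leaves and root. Of these, 52.2% had at least 1 CPM in all 4 tissues, against 74.8% of the corresponding genes with introns. Root held the highest level of 30.4% of the intronless genes, mature leaves of 24.9%, apex of 24.7% and young leaves of 20.1%. The same shares for genes with introns were 31.8% for root, 25.5% for mature leaves, 28.9% for apex and 13.9% for young leaves. A level at least 5 times that of the next tissue was found for 12.6% of intronless genes, 225 of the 381 in root. It was found for 6.77% of genes with introns, 1025 of the 1525 in root. The tissue index tau, which is 0 for an even level and 1 for a gene read in a single tissue, had a median of 0.60 over intronless genes and 0.44 over genes with introns. Low levels carry more counting error, which raises tau, and the part of the lower level in this difference was not tested.

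The 5 intronless genes with the highest mean level over all groups differed widely between tissues and library types. Potri.011G079500 averaged 14906 CPM in long-term young leaves under drought and 16655 CPM in control, and 2.58 CPM in drought root mRNA and 6.52 CPM in control root mRNA. Potri.004G218400 followed the same pattern, with 5509 CPM in young leaves under drought and 5854 CPM in control, against 1.15 and 3.35 CPM in drought and control root mRNA. Potri.T005800 was read at 27924 and 31390 CPM in the short-term mature leaf drought libraries and at 35335 and 39991 CPM in the controls, all total RNA. In long-term mature leaf mRNA, which differs from these in both duration and library type, it stood at 175 and 5.14 CPM under drought and at 45.9 and 97.2 CPM in control. Potri.019G087600 had 9183 and 12192 CPM in root total RNA under drought and 10816 and 14330 CPM in control, while its 4 root mRNA libraries lay between 2.54 and 2.73 CPM. The remaining gene of the 5, Potri.013G139800, was also uneven between libraries of one group. Long-term mature leaves under drought gave 34611 CPM (library 64) and 1167 CPM (library 68), with 9838 and 17405 CPM in the controls between them. In this group Potri.T005800 and Potri.019G087600 (180 and 14.7 CPM) were likewise higher in library 64. Potri.011G079500 and Potri.004G218400 were higher in library 68. Ranked by sense reads in all libraries instead, the first 5 were Potri.T005800, Potri.019G087600, Potri.011G079500, Potri.010G161200 and Potri.T006000, which held 16.3% of the reads of the class. They are called the 5 most-read genes below.

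As a class, intronless genes took between 8.44% and 16.5% of the sense reads of a library. Their share was highest in short-term mature leaf total RNA, where the drought libraries held 14.5% and 14.96% and the control libraries 16.1% and 16.5%. The drought libraries lay below both controls there (14.7% ± 0.293 against 16.3% ± 0.251, SD, n = 2 each, difference -1.54 points, exact permutation p = 0.333). Without the 5 most-read genes the same difference was -0.819 points. Root libraries went the other way. Root mRNA held 8.81% and 9.41% under drought against 8.44% and 8.66% in control. Root total RNA held 10.87% and 11.23% under drought against 10.42% and 10.85% in control. Neither pair of groups overlapped (exact permutation p = 0.333 for each). In root total RNA the margin was narrow, with drought library 68 (10.87%) close to control library 70 (10.85%). Without the 5 most-read genes the root total RNA groups still lay apart (9.51% and 9.33% against 8.82% and 8.77%), and the root mRNA groups overlapped (9.11% and 8.32% against 8.48% and 8.25%). The groups overlapped in short-term apex, long-term apex, young leaves and mature leaves (exact permutation p of 0.667 to 1). In short-term apex they came apart once the 5 most-read genes were left out, with 8.83% and 8.71% under drought and 9.77% and 9.66% in control, a difference of -0.945 points. An exact test of 2 libraries against 2 cannot give a two-sided p below 0.333.

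**Figure D1:**
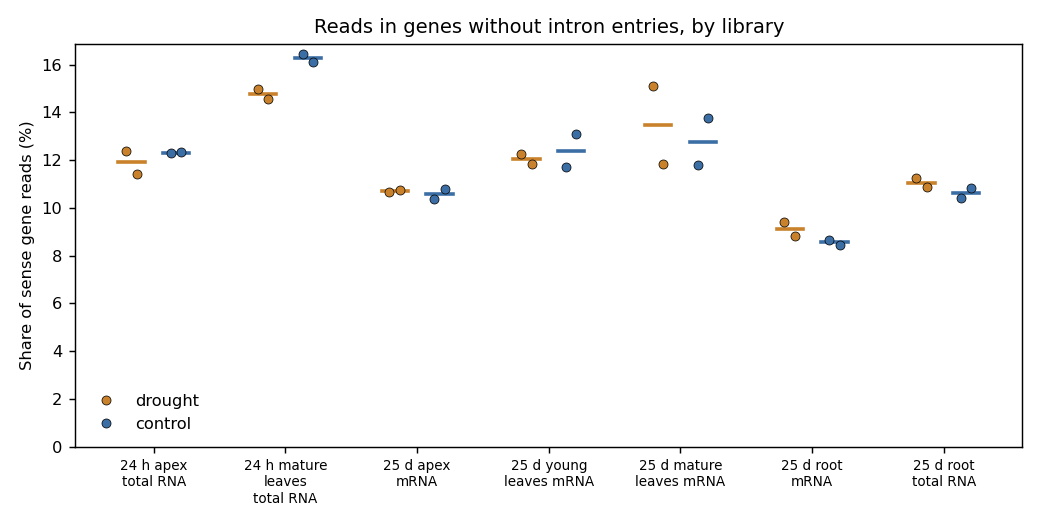
Share of sense gene reads (percent, vertical axis) that fell in intronless genes, for each of the 7 comparisons. Points are libraries, drought (orange) left of control (blue), and horizontal bars are the means of 2 libraries. The drought libraries of short-term mature leaves (14.5% and 14.96%) lie below the controls (16.1% and 16.5%). Those of root lie above their controls, narrowly so in root total RNA (10.87% in drought library 68, 10.85% in control library 70).

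Drought changes of single genes were tested with edgeR's quasi-likelihood test over every gene that passed its expression filter, and a gene was called at a Benjamini-Hochberg adjusted p under 0.05. Bulk tissue was sequenced, so a fall can reflect fewer cells of a type or less RNA per cell, which cannot be told apart. The filter kept between 2703 (57.7%, long-term mature leaves) and 3614 (77.1%, root total RNA) of the 4688 intronless genes, against 77.3% and 89.2% of genes with introns. In all 7 comparisons 2083 intronless genes were tested (44.4%), and 327 were tested in none. The counts below are over tested genes unless stated otherwise. Named genes were chosen among called genes whose drought and control libraries did not overlap, so their separation is part of the choice. The classes are set side by side as descriptions, without a test between them.

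In the apex after 24 hours of drought, intronless genes were called about as often as the rest. Of 3401 tested, 995 rose (29.3%) and 1106 fell (32.5%), where 30.0% of all tested genes rose and 32.3% fell. Their median log2 change was -0.03, against 0.00 for genes with introns. What differed was the size: the risers had a median log2 change of 1.66 and the fallers of -1.84, against 1.11 and -1.46 among genes with introns. At least 4-fold changes were called in 881 intronless genes, 385 up and 496 down, or 25.9% of those tested, where 17.8% of all tested genes passed this rule. Intronless genes were 12.6% of the genes tested here and 18.3% of the 4-fold calls.

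Potri.002G020700 had 73.3 and 33.2 CPM in the drought apex libraries, against 0.135 and 0.390 CPM in the controls, a log2 change of 7.77 (SE 0.64, adjusted p = 0.000339). Potri.004G000400 had 283 and 161 CPM under drought, against 1.71 and 0.494 CPM in control (log2 change 7.58, SE 0.66, adjusted p = 0.000529). Potri.006G245600 fell to 0.108 and 0.0244 CPM under drought, against 37.5 and 47.0 CPM in control (log2 change -9.30, SE 0.36, adjusted p = 4.02e-05). Potri.003G210100 had 0.269 and 0.292 CPM in drought libraries and 183 and 224 CPM in control libraries (log2 change -9.48, adjusted p = 3.08e-05).

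In mature leaves after 24 hours, intronless genes leaned towards lower levels. Of 2969 tested, 222 rose (7.48%) and 412 fell (13.9%), where 8.73% of all tested genes rose and 9.20% fell. Genes with introns rose and fell in near equal numbers (8.89% and 8.57%). The median log2 change was -0.23 over intronless genes and 0.02 over genes with introns. The lean was present at each level: the medians of intronless genes and of genes with introns were -0.33 and -0.25 under 1 CPM, -0.26 and -0.04 from 1 to 10 CPM, -0.10 and 0.12 from 10 to 100 CPM, and -0.20 and 0.04 above 100 CPM. The number and the direction of calls rested on single libraries. Without control library 19, 19 intronless genes rose and 8 fell, and without control library 49, 21 rose and 4 fell, so that rises outnumbered falls. Without drought library 35, 357 rose and 642 fell. A test against a 2-fold change gave 60 rises and 63 falls. The median stayed between -0.28 and -0.20 when any one library was left out. At least 4-fold changes were called in 249 intronless genes, 103 up and 146 down (8.39% of those tested), where 4.64% of all tested genes passed, and intronless genes were 11.9% of tested genes and 21.4% of these calls.

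Potri.001G042600 had 391 and 351 CPM in drought mature leaves, against 0.182 and 0.305 CPM in control (log2 change 10.53, SE 0.31, adjusted p = 0.000112). The control libraries of Potri.013G014300 held 2 counts in all and its drought libraries 43.3 and 63.1 CPM, a ratio of 1901 with a 95% counting interval of 526 to 15703. Potri.013G120600 stood at 0.728 and 0.101 CPM under drought and at 10.1 and 15.3 CPM in control (log2 change -4.89, SE 0.74, adjusted p = 0.0186). Potri.017G128400 had 0.507 and 0.0507 CPM under drought, against 10.3 and 25.4 CPM in control (log2 change -5.93, SE 0.95, adjusted p = 0.0264). The calls of Potri.013G120600 and Potri.017G128400 were lost without control library 19 (adjusted p = 0.124 and 0.103) and without control library 49 (adjusted p = 0.124 and 0.116).

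After 25 days the apex showed few changes in either class. Of 2947 intronless genes tested, 2 rose (0.0679%) and 13 fell (0.441%), where 0.0279% of all tested genes rose and 0.136% fell. Genes with introns gave 5 risers and 21 fallers among 22117 tested. At least 4-fold changes were called in 10 intronless genes, each of them lower under drought, where 0.0718% of all tested genes passed, so that intronless genes were 55.6% of 18 such calls and 11.8% of tested genes. The number of calls depended on the fit and on single libraries, with 21 up and 77 down by DESeq2, 15 up and 83 down without control library 70, and 29 up and 28 down without drought library 68.

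Potri.005G094500 fell to 6.98 and 10.7 CPM in the long-term drought apex, against 91.7 and 86.2 CPM in control (log2 change -3.33, SE 0.21, adjusted p = 0.00478). Potri.006G093500 fell to 5.30 and 8.26 CPM under drought, against 49.03 and 38.1 CPM in control (log2 change -2.69, SE 0.24, adjusted p = 0.0178). The 2 risers were Potri.010G208800, with 33.8 and 34.3 CPM under drought against 15.3 and 15.1 CPM in control (log2 change 1.16, adjusted p = 0.0322), and Potri.012G004500, with 33.9 and 33.3 CPM against 16.1 and 15.04 CPM (log2 change 1.11, adjusted p = 0.0445). The calls of both risers were lost without control library 63 (adjusted p = 0.0785 and 0.0799) and without drought library 64 (adjusted p = 0.059 and 0.0771).

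In young leaves after 25 days, intronless genes were called more often than genes with introns in both directions. Of 2936 tested, 202 rose (6.88%) and 247 fell (8.41%), where 4.62% of all tested genes rose and 6.82% fell, and genes with introns gave 4.31% and 6.61%. At least 4-fold changes were called in 110 intronless genes, 71 up and 39 down, where 1.89% of all tested genes passed, which made them 11.8% of tested genes and 23.5% of these calls. Potri.014G126000 had 30.5 and 19.1 CPM under drought, against 0.282 and 0.564 CPM in control (log2 change 5.88, SE 0.38, adjusted p = 0.00119). Potri.004G067800 fell to 96.6 and 58.6 CPM under drought, against 1391 and 506 CPM in control (log2 change -3.61, SE 0.58, adjusted p = 0.0177). Falls outnumbered rises among the intronless genes, but not without control library 70, where 206 rose and 173 fell, nor at the 2-fold test, where 40 rose and 16 fell.

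In mature leaves after 25 days most calls were falls. Of 2703 intronless genes tested, 45 rose (1.66%) and 141 fell (5.22%), where 1.29% of all tested genes rose and 4.07% fell. At least 4-fold changes were called in 98 intronless genes, 9 up and 89 down, where 2.38% of all tested genes passed, and they were 11.5% of tested genes and 17.5% of these calls. The median log2 change was 0.06 over intronless genes and 0.00 over genes with introns. Without control library 70 the number of called intronless genes was 398 instead of 186, and without drought library 68 it was 97.

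Potri.001G235500 had 47.8 and 49.9 CPM in drought mature leaves after 25 days, against 4.18 and 3.87 CPM in control (log2 change 3.60, SE 0.16, adjusted p = 0.00211). Potri.017G128400, which fell in mature leaves at 24 hours, stood at 0.300 and 0.660 CPM under long drought and at 24.1 and 26.0 CPM in control (log2 change -5.62, SE 0.32, adjusted p = 0.00253). Potri.001G234500 had 0.450 and 0.243 CPM under drought, against 11.8 and 14.8 CPM in control (log2 change -5.30, SE 0.34, adjusted p = 0.00395).

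In root mRNA after 25 days, 445 of 3466 intronless genes tested rose (12.8%) and 582 fell (16.8%), where 12.7% of all tested genes rose and 14.7% fell. The total RNA libraries of root tested 3614, with 410 higher (11.3%) and 555 lower under drought (15.4%), where 12.1% of all tested genes rose and 14.3% fell. The median log2 change was -0.13 in mRNA and -0.10 in total RNA, and -0.02 over genes with introns in each. At least 4-fold changes were called in 360 intronless genes in mRNA, 145 up and 215 down, where 6.05% of all tested genes passed. In total RNA there were 321, 129 up and 192 down, where 5.58% of all tested genes passed. Intronless genes made up 21.6% and 20.8% of these calls in mRNA and total RNA, against 12.6% and 13.1% of the genes tested. Counts of calls in root mRNA were 321 without control library 63, 213 without control library 70 and 633 without drought library 68. In root total RNA they were 391, 301 and 470 without the same libraries.

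Potri.006G048200 had 98.6 and 178 CPM in root mRNA under drought, against 1.90 and 2.50 CPM in control (log2 change 5.97, SE 0.39, adjusted p = 0.00628), and 178 and 319 CPM in root total RNA, against 4.21 and 4.70 CPM (log2 change 5.80, SE 0.36, adjusted p = 0.0058). Potri.001G376200 had 15.7 and 21.8 CPM in root mRNA under drought, against 0.371 and 0.110 CPM in control (log2 change 6.24, SE 0.50, adjusted p = 0.00659). Potri.002G104600 fell to 86.6 and 59.2 CPM in root total RNA under drought, against 1461 and 1950 CPM in control (log2 change -4.55, SE 0.29, adjusted p = 0.0058). Potri.007G086400 had 0.716 and 0.866 CPM in root mRNA under drought, against 32.5 and 11.7 CPM in control (log2 change -4.80, SE 0.59, adjusted p = 0.0104), a call that was lost without drought library 64 (adjusted p = 0.0551) or 68 (adjusted p = 0.0639).

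**Figure D2:**
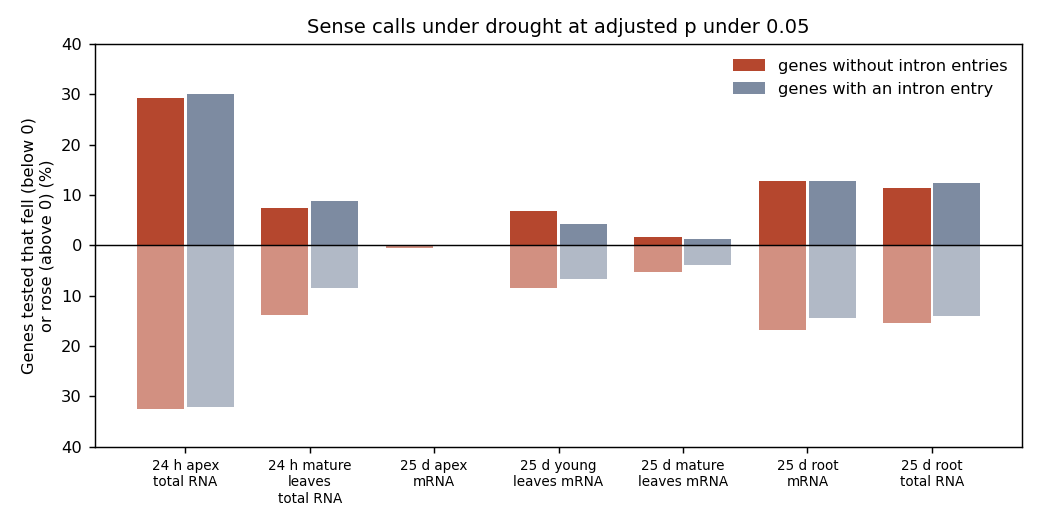
Percent of tested genes that rose (above 0) or fell (below 0, lighter) under drought at an adjusted p under 0.05, for intronless genes (red, left) and genes with introns (grey, right) in each of the 7 comparisons. The classes stand side by side in short-term apex, and intronless genes fell more often in short-term mature leaves (13.9% against 8.57%).

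The size of a change, whatever its direction, was larger in intronless genes. The median absolute log2 change was 1.10 over intronless genes and 0.80 over genes with introns in short-term apex, 0.61 and 0.43 in short-term mature leaves, 0.27 and 0.17 in long-term apex, 0.43 and 0.30 in young leaves, 0.46 and 0.31 in long-term mature leaves, 0.63 and 0.45 in root mRNA and 0.59 and 0.42 in root total RNA. Since low levels inflate this measure, genes were also compared within bands of mean level. Intronless genes had the larger median in 7 of 7 comparisons at 1 to 10 CPM, at 10 to 100 CPM and above 100 CPM, and in 5 of 7 below 1 CPM. The spread between the 2 libraries of a group moved with the class as well. Within each of the 3 bands above 1 CPM, intronless genes had the larger median difference between replicates in 14 of 14 groups, for example 0.14 to 0.31 (log2) at 10 to 100 CPM, against 0.11 to 0.21 for genes with introns. The part of this replicate spread, or of shorter transcripts, in the larger changes was not tested.

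**Figure D3:**
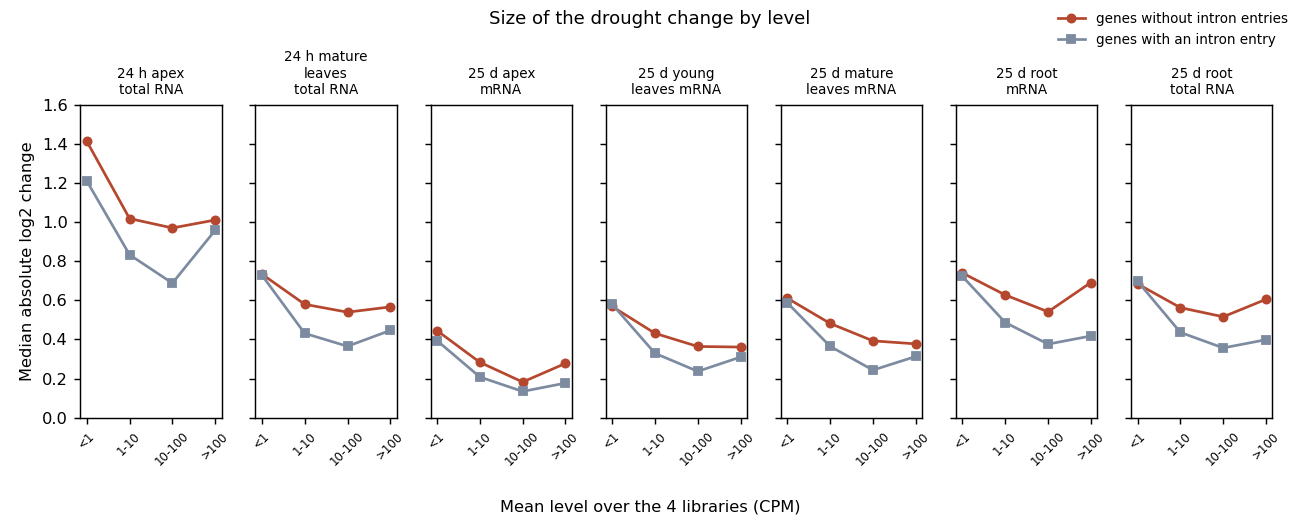
Median absolute log2 change under drought (vertical axis) in 4 bands of mean level (CPM, horizontal axis), one panel for each of the 7 comparisons, for intronless genes (red circles) and genes with introns (grey squares). Red lies above grey in every panel from 1 CPM upwards. Below 1 CPM red lies under grey in young leaves and root total RNA. It lies above grey in the other panels, by most in short-term apex (1.41 against 1.21).

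Root was sequenced both as total RNA and as mRNA, which shows intronless transcripts that differ between these library types. mRNA libraries select RNA with a poly(A) tail, whereas total RNA libraries keep tailed and untailed RNA once ribosomal RNA is removed. Of 3822 intronless genes tested over the 8 root libraries, 1152 were higher in total RNA (30.1%) and 688 were lower (18.0%), where 26.0% of all tested genes were higher and 26.8% lower. Genes with introns were higher in 25.4% and lower in 28.2%. With the title number as a replicate block, 1611 intronless genes were higher (42.2%) and 1089 lower (28.5%), where 36.5% of all tested genes were higher and 37.8% lower, and genes with introns gave 35.7% and 39.2%. The median log2 difference, total RNA over mRNA, was 0.16 for intronless genes and -0.04 for genes with introns. At least 4-fold differences were called in 331 intronless genes, 241 of them higher in total RNA, where 3.35% of all tested genes passed, and intronless genes were 34.6% of these calls against 13.4% of tested genes. Higher in total RNA outnumbered lower in each level band of intronless genes, from 300 against 156 under 1 CPM to 87 against 34 above 100 CPM. Among genes with introns lower calls outnumbered higher ones under 10 CPM, and higher ones led above 10 CPM.

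Potri.011G046000 was read at 44.2 to 50.6 CPM in the 4 root total RNA libraries (10854 counts) and had 0 counts in the 4 mRNA libraries, which makes it at least 3724-fold higher in total RNA against a floor of 3 counts over the mRNA group. Potri.008G220000 had 335 to 468 CPM in total RNA and 0.0155 to 0.0530 CPM in mRNA (log2 difference 13.41, SE 0.15, adjusted p = 4.22e-09). In the other direction, Potri.012G127500 had 32.0 to 60.8 CPM in total RNA and 495 to 823 CPM in mRNA (log2 difference -3.86, SE 0.09, adjusted p = 5.8e-08). Potri.010G183300 had 1.11 to 1.73 CPM in total RNA, against 10.1 to 18.2 CPM in mRNA (log2 difference -3.31, adjusted p = 1.97e-07).

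The share of sense reads in intronless genes followed the same direction. It was 10.8% ± 0.331 in root total RNA and 8.83% ± 0.414 in root mRNA (SD, n = 4 each), and the total RNA library was higher in 4 of 4 pairs with the same title number, by 2.01 points on average (exact sign-flip permutation p = 0.125, two-sided, the smallest that 4 pairs allow). Without the 5 most-read genes the shares were 9.11% and 8.54%, a difference of 0.567 points that again had the same sign in 4 of 4 pairs.

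**Figure D4:**
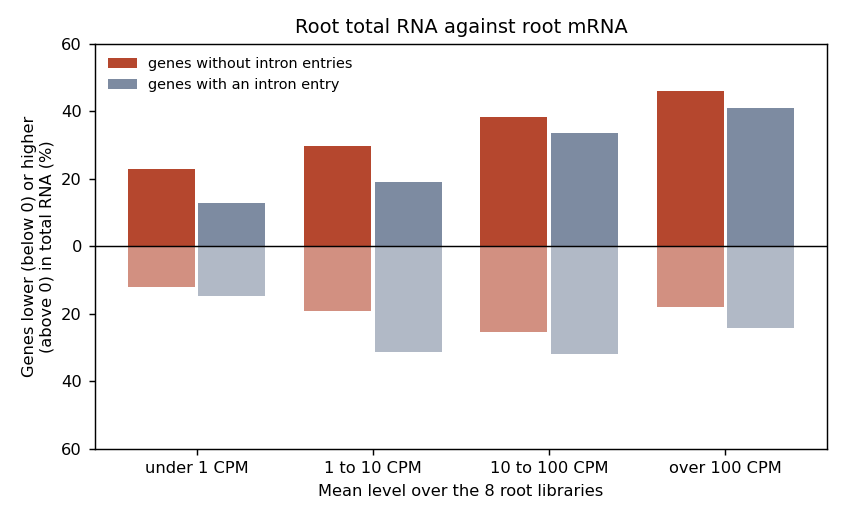
Percent of tested genes called higher (above 0) or lower (below 0, lighter) in root total RNA than in root mRNA, in 4 bands of mean level over the 8 root libraries, for intronless genes (red, left) and genes with introns (grey, right). In every band a larger part of the intronless genes is higher in total RNA, and a smaller part is lower.

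Antisense reads, those mapped to the strand opposite a gene, had a higher median ratio to sense reads over intronless genes. The median intronless gene had 0.215 antisense reads per 100 sense reads, summed over the 28 libraries, against 0.0515 for genes with introns. More antisense than sense reads were counted over 333 intronless genes (7.10%) and over 530 genes with introns (1.97%), while 1068 intronless genes had no antisense read at all. Summed over each class, the order differed between libraries. Long-term apex control library 63 had 3.53 antisense reads per 100 sense reads over intronless genes and 1.20 over genes with introns. Short-term mature leaf control library 19 had 4.19 and 5.81. Intronless genes also had lower sense levels, and the part of this in the ratios was not tested. Gene coordinates were not at hand, so whether such reads come from a neighbouring transcript on the other strand was not tested. A few genes held most of the signal. Together, 5 of the 4688 intronless genes carried 52.7% of the class's antisense reads, led by Potri.013G139800 with 1743672 antisense and 1928934 sense reads (23.4% of the class) and by Potri.013G140000 with 847895 antisense and 2615 sense reads (11.4%). They were picked as the 5 with the most antisense reads.

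Summed over all intronless genes, the ratio of antisense to sense reads varied most in long-term mature leaves. The drought libraries had 29.6 (library 64) and 4.16 (library 68) antisense reads per 100 sense reads, and the controls 13.0 and 15.4 lay between them. Without the 5 genes, the drought libraries had 2.49 and 2.75 and the controls 2.35 and 2.38. Genes with introns had 4.41 and 3.84 under drought and 3.57 and 4.24 in control. In short-term apex, over all intronless genes, the drought libraries had 4.76 and 5.17 and the controls 6.96 and 6.91, a difference of -1.97 (exact permutation p = 0.333, the smallest possible). Without the 5 genes the difference was -0.02, with 3.45 and 3.55 under drought and 3.53 and 3.52 in control. The ratio was higher under drought, without overlap of the groups, in 4 comparisons: short-term mature leaves had 4.38 and 4.32 against 4.19 and 4.29, long-term apex had 3.89 and 4.60 against 3.53 and 3.37, root mRNA 3.90 and 5.58 against 3.80 and 3.76, and root total RNA 4.17 and 5.21 against 3.84 and 3.85. Without the 5 genes the difference was 0.297 in long-term apex and 0.313 in root total RNA, where the groups stayed apart, and the groups overlapped in short-term mature leaves (0.141) and root mRNA (0.0591). Among genes with at least 500 reads the difference was -0.331 in short-term mature leaves and -0.0457 in root mRNA, below 0 in both. In root mRNA it was 0.114 without drought library 68, against 0.954 with all 4 libraries. Young leaves overlapped, with 9.18 and 4.41 under drought against 10.5 and 6.47 in control. Without the 5 genes their groups were apart (2.515 and 2.526 against 2.308 and 2.059). Genes with introns were higher under drought without overlap in long-term apex (1.40 and 1.42 against 1.20 and 1.29). They were so too in root mRNA (1.25 and 1.195 against 1.08 and 1.06) and young leaves (2.73 and 3.16 against 2.02 and 2.27). In the other comparisons their groups overlapped.

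**Figure D5:**
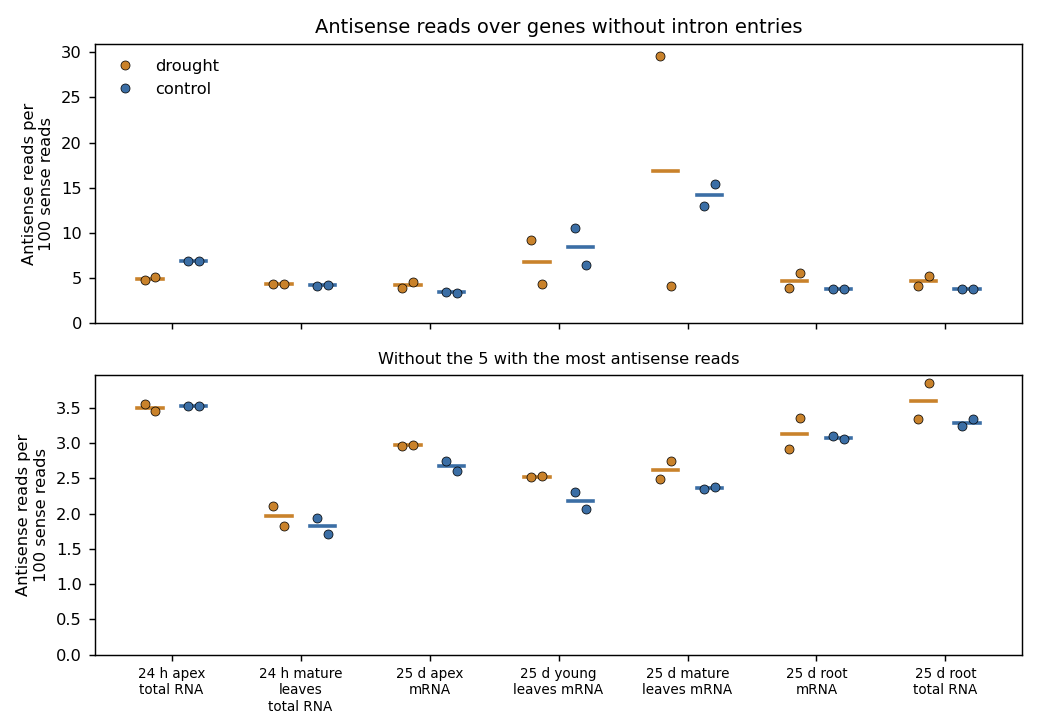
Antisense reads per 100 sense reads over intronless genes in each library (vertical axis), with all of them (upper panel) and without the 5 with the most antisense reads (lower panel, other scale). Points are libraries, drought (orange) left of control (blue), bars are means of 2 libraries. The long-term mature leaf drought libraries stand at 29.6 and 4.16 in the upper panel and at 2.49 and 2.75 in the lower one.

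Antisense changes were tested gene by gene on the scale of the sense libraries. Because a call needs enough antisense reads, 808 intronless genes (17.2%) were tested in short-term apex, against 8.16% of genes with introns. Of these, 284 rose and 125 fell, where 34.9% of all tested genes rose and 13.4% fell. The median log2 change was 0.55 over intronless genes and 0.63 over all tested genes. With antisense counts scaled by their own TMM factors (edgeR's scaling, called own totals below), the median over intronless genes was -0.01. In that fit 171 rose and 196 fell. This scaling sets the bulk of the antisense changes near 0, so it cannot show whether the class as a whole rose. The balance of rises and falls thus depended on the scaling. Counts of calls were 247 without control library 19 and 228 without control library 49, instead of 409. Potri.006G048200 had 337 antisense counts in the drought apex libraries and 1 in the controls, a ratio of 420 (95% counting interval 74.9 to 16651), and its sense log2 change there was 6.86 (adjusted p = 4.69e-05). Antisense levels of Potri.002G020700 were 4.09 and 4.73 CPM under drought, against 0.0847 and 0 CPM in control (log2 change 6.38, SE 0.55, adjusted p = 1.32e-05). Both genes thus rose on both strands. Potri.001G016900 had 1 antisense count under drought and 332 in control, 266 times as many in control (95% counting interval 47.4 to 10545).

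In short-term mature leaves, 63 of 634 intronless genes tested rose on the antisense strand and 33 fell, where 9.58% of all tested genes rose and 4.35% fell (48 and 44 with own totals). The number called was 169 when control library 49 was left out, 24 when drought library 35 was, and 3 when drought library 69 was. Potri.002G175400 had 0.154 and 0.101 antisense CPM under drought, against 2.85 and 3.51 CPM in control (log2 change -4.59, SE 0.43, adjusted p = 0.00296).

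The long-term shoot tissues gave few antisense calls. In apex 0 of 424 intronless genes rose and 2 fell, where 0.0631% of all tested genes rose and 0.757% fell. At an unadjusted p under 0.05 there were 50 in either direction, DESeq2 called 0, and edgeR called 0 with own totals, 10 without control library 70 and 0 without drought library 68. In young leaves 28 of 406 rose and 8 fell, where 5.54% of all tested genes rose and 2.28% fell (15 and 8 with own totals). Leaving out control library 70 gave 74 calls there, and leaving out drought library 68 gave 4. In mature leaves 2 of 381 rose and 2 fell, where 0.785% of all tested genes rose and 0.999% fell (1 and 2 with own totals). Without one library the calls there were 13 (control 63), 42 (control 70), 11 (drought 64) and 9 (drought 68). Potri.011G142400 had 2.27 and 4.80 antisense CPM in young leaves under drought, against 0.424 and 0.282 CPM in control (log2 change 3.30, SE 0.48, adjusted p = 0.0107).

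In root mRNA 94 of 670 intronless genes tested rose on the antisense strand and 55 fell, where 13.9% of all tested genes rose and 7.15% fell. With own totals, which set the bulk of the changes near 0, 73 rose and 83 fell. Calls numbered 37 without control library 63, 68 without control library 70 and 224 without drought library 64. Root total RNA had 905 such genes tested, of which 107 rose and 81 fell, where 9.97% of all tested genes rose and 6.60% fell. There the split was 91 and 91 with own totals and 66 and 30 by DESeq2, and 125 genes were called without control library 63. Potri.002G086900 had 3.14 and 5.09 antisense CPM in root mRNA under drought, against 0.274 and 0.202 CPM in control (log2 change 4.09, SE 0.37, adjusted p = 0.00294). Potri.004G000300 fell in both library types, to 0.496 and 0.406 CPM in drought mRNA, against 2.77 and 2.34 CPM in control mRNA (log2 change -2.50, adjusted p = 0.0039), and to 0.541 and 0.421 CPM in drought total RNA, against 3.14 and 2.49 CPM in control total RNA (log2 change -2.54, adjusted p = 0.000657).

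Across the 7 comparisons, 1883 intronless genes had no sense call, 1422 had 1, 626 had 2, 439 had 3, 221 had 4, 80 had 5 and 17 had 6, and 0 were called in 7. As shares of the whole class, tested or not, these were 40.2%, 30.3%, 13.4%, 9.36%, 4.71%, 1.71% and 0.363% for 0 to 6 calls, against 33.2%, 33.2%, 14.4%, 11.3%, 5.86%, 1.59% and 0.387% of genes with introns. Genes that were not tested count as not called. No comparison tested 6.98% of intronless genes and 2.75% of genes with introns, and all 7 tested 44.4% and 70.8%. Root enters these numbers both as mRNA and as total RNA. The long-term comparisons share their title numbers, and so do the short-term ones. Calls repeated within a term, here and in the overlaps below, may therefore not be independent. Of the 17 genes called in 6, 5 rose each time, 11 fell each time and 1 went both ways. Potri.001G235500 was one of the 5: its log2 change was 7.35 in short-term apex, 3.38 in short-term mature leaves, 4.88 in young leaves, 3.60 in long-term mature leaves, 3.13 in root mRNA and 3.21 in root total RNA, with adjusted p-values of 0.000536 to 0.00687, and 1.38 in long-term apex (adjusted p = 0.182).

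Mature leaves and apex at 24 hours both called 430 intronless genes, which is 67.8% of the 634 called in mature leaves and 20.5% of the 2101 called in apex. For genes with introns the same shares were 74.3% and 19.4%. Among tested intronless genes, called or not in the other tissue, 61.8% were called in apex and 21.4% in mature leaves. Of all tested genes 62.3% and 17.9% were called. Of the 430, 160 rose in both, 230 fell in both and 40 went opposite ways, 30 of them higher in apex and lower in leaves. Of 2864 genes with introns called in both, 1417 rose in both and 1134 fell in both. Another 166 were higher in apex and lower in leaves, and 147 the reverse. The mature leaves of the 2 experiments, which differ in duration and in library type, shared 93 called intronless genes. These were 14.7% of those called at 24 hours and 50% of those called at 25 days, where genes with introns shared 11.9% and 42.7%. Of the 93, 69 were lower and 11 higher in both. Of 459 shared genes with introns, 344 were lower and 63 higher in both. Long-term young and mature leaves shared 84 intronless genes, of which 62 fell and 18 rose in both. These 84 were 18.7% of those called in young leaves and 45.2% of those called in mature leaves. Genes with introns shared 19.1% and 42.4%, and of these 455 genes 360 fell and 78 rose in both.

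Some intronless genes stand next to each other in the order of gene IDs. Runs of 2 or more IDs in a row numbered 596 and held 1341 genes (28.6%), and 5 runs held 5 or more. How many runs a random order of IDs would give was not tested. In short-term apex the longest, 7 genes from Potri.003G216000, had 1 rise and 3 falls. Runs of 5 with 4 genes tested had 0 rises and 2 falls (from Potri.018G092900 and from Potri.011G158300) or 1 rise and 1 fall (from Potri.015G128100). In the other run of 5, from Potri.007G111500 to Potri.007G111900, each gene rose in short-term apex, with log2 changes of 2.56 to 8.15 (adjusted p of 5.75e-05 to 0.00609). In root mRNA 4 of the 5 rose, and Potri.007G111900 was not called (adjusted p = 0.472). In root total RNA 3 of the 5 rose. Potri.007G111900 (adjusted p = 0.371) and Potri.007G111700 (log2 change 5.21, SE 1.40, adjusted p = 0.0534) were not called there. In short-term mature leaves a single gene of the run was tested, Potri.007G111500, with a log2 change of 0.50 (adjusted p = 0.666). This run was picked after its values were seen. Neighbouring genes can be near-identical copies, in which case the authors' counting may have split or dropped shared reads, so values of single genes in a run are uncertain.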

How the data were processed

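Strand-specific RNA-seq was read from 28 libraries, each with 4 deposited files of raw read counts, for both strands of 41335 genes and of 33325 intron entries, 109 of which join several genes. Stranded TruSeq kits were used, per the labels' protocols, on mRNA or on total RNA after Ribo-Zero treatment. TopHat2 2.1.0, HTSeq 0.6.0 and DESeq2 stand in the submitters' processing notes, their roles unstated. Genome build, annotation and counting options are not given in the sources used here, and how reads of overlapping or near-identical genes were split is unknown. Lines that name no gene made up 3.37% to 12.5% of the total in the 20 sense files that have them, and stayed out of totals and tests. None of the 41335 IDs matched the reference table at hand (assembly P.trichocarpa_v4.1, 34621 genes), so 0 genes could be named and no sequence is shown.

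Intron files served to class the genes. Each drought comparison was fitted on the whole table with edgeR 4.0.16 (limma 3.58.1, R 4.3.3): filterByExpr at its defaults (10 counts after scaling, 15 in total), TMM scaling, robust quasi-likelihood fit of the 4 libraries, and Benjamini-Hochberg adjustment over all genes tested. Antisense counts were scaled by the effective sense library sizes. The alternative called own antisense totals used TMM scaling of the antisense counts themselves. Root total RNA was compared with root mRNA over 8 libraries, with the watering arm as a term. A standard error is the log2 change over the square root of F. Class shares and ratios of single libraries were compared with exact two-sided permutation tests (Python 3.11.15, scipy 1.17.1, pandas 2.3.3). Counting intervals are exact at 95% and, like the floor of 3 counts over a group, cover counting error only.

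The members, lists and tests were chosen with earlier results of these data known. Named genes are at most 2 up and 2 down per comparison and strand: the largest log2 change among intronless genes with an adjusted p under 0.05, no overlap of the groups and a mean of 5 CPM or more (sense) or 1 CPM or more (antisense). Other IDs are marked as picked after their values were seen or as ranked by level or reads. Libraries of a group differed by more than counting noise (chi-square per degree of freedom 26.6 to 119.7). Drought and control libraries share no title numbers. Root mRNA and total RNA libraries do, and the deviations of same-numbered libraries correlated (r = 0.684 and 0.730 over 28567 genes), so the numbers pair them. Fits were tested on simulated counts. Alternatives were DESeq2 1.42.0, no count filter, each library left out, minimum totals of 10 and 500 reads, a 2-fold threshold, own antisense totals, the classes without their top 5 genes and the replicate block.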

Additional observations from a re-analysis of the deposited data

Results flagged for a closer look

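The results below moved in opposite directions in comparisons that differ in tissue or in term, with groups that did not overlap in either comparison. The differences between comparisons were not tested, and the 2 terms also differ in library type for the shoot.

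Antisense reads per 100 sense reads over intronless genes differed by -1.97 between drought and control in short-term apex, by 0.11 in short-term mature leaves and by 0.803 in long-term apex. Without the 5 genes with the most antisense reads these values were -0.0214, 0.141 and 0.297, with overlapping groups in both short-term tissues. With a minimum of 500 reads the difference in short-term mature leaves was -0.331, the same sign as in short-term apex (-2.21).

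Potri.006G093500 had log2 changes of -2.69 in long-term apex and -2.93 in young leaves, and of 1.38 in root mRNA. Potri.010G208800 changed by -3.96 in short-term apex and by 1.16 in long-term apex. Potri.012G004500 changed by -2.65 in short-term apex, by 1.11 in long-term apex and by -0.898 in root mRNA. Potri.016G125400 changed by -4.50 in short-term mature leaves and by 1.97 in long-term mature leaves, where it had 13.9 and 19.6 CPM under drought against 3.57 and 5.02 CPM in control.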

How the results depend on the processing

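With 2 libraries a group, the number of intronless genes called depended on single libraries, which are named beside each comparison above. In these fits the lone library of a group is assumed to vary like the other groups. Leaving out one library gave 25 to 999 sense calls in short-term mature leaves (634 with all), 10 to 98 in long-term apex (15), 97 to 398 in long-term mature leaves (186), 213 to 1069 in mRNA of root (1027) and 301 to 924 in its total RNA (965). It gave 228 to 497 antisense calls in apex at 24 hours (409), 3 to 169 in mature leaves at 24 hours (96), 0 to 10 in long-term apex (2), 4 to 74 in young leaves (36), 9 to 42 in long-term mature leaves (4), 37 to 224 in mRNA of root (149) and 125 to 236 in its total RNA (188). Sense calls in short-term apex (1551 to 2166) and young leaves (356 to 425), and the root library types (1627 to 1772), stayed within 1.5 times.

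A test against a 2-fold change left 1068 sense calls in short-term apex, 123 in short-term mature leaves, 2 in long-term apex, 56 in young leaves, 37 in long-term mature leaves, 165 in root mRNA, 153 in root total RNA and 416 between root library types. DESeq2 called 98 in long-term apex and 327 in long-term mature leaves on the sense strand. On the antisense strand it called 246 and 59 in short-term apex and mature leaves, 0 in long-term apex, 16 in young leaves, 91 in root mRNA and 96 in root total RNA. Without a count filter there were 36 and 284 sense calls in long-term apex and mature leaves, and 7 and 20 antisense calls. With own antisense totals 0 were called in long-term apex and 23 in young leaves, and with a minimum of 500 reads 1 in long-term apex. The 2-fold test sets a higher bar by construction, and the cause of the other shifts was not tested.

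Without the 5 most-read genes, the difference in the share of sense reads was -0.945 points in short-term apex and -0.819 in short-term mature leaves. For antisense reads per 100 sense reads, without the 5 genes with the most antisense reads, it was -0.0214 in short-term apex, 0.297 in long-term apex, 0.0591 in root mRNA and 0.313 in root total RNA. With a minimum of 500 reads it was -2.21 in short-term apex, -0.331 in short-term mature leaves and -0.0457 in root mRNA.

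With the replicate block, 2700 intronless genes were called between root library types, 1611 higher (42.2%) and 1089 lower (28.5%) in total RNA. Of all tested genes 36.5% were higher and 37.8% lower in that fit. The 4 genes named in that comparison stayed past the threshold. No paired analysis was possible within the drought comparisons because drought and control libraries share no numbers. Of 398 repeats of the 54 results for named genes, 361 stayed past the threshold, 37 did not and 0 changed sign, and 25 of the 37 came from leaving out a library.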
